A study of Mus musculus with 6 samples.

Results

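The interferon-inducible GTPase genes Gbp2, Gbp3, Gbp7, Irgm1, Irgm2, Igtp, Iigp1, Mx1 and Mx2 were followed in 6 lines of mouse embryo fibroblasts, 3 chromosomally stable and 3 unstable. All 9 genes had a probe set that the platform annotation assigns to a single gene symbol, giving 12 probe sets of 20380 of that kind and 9 genes of 12393. The genes were chosen on their unstable minus stable differences as members of an interferon response already seen in these arrays. Those differences are therefore given as a description, without a test of single genes. The labels list both loci of every stable line as wild type, and these lines comprised 2 lines with the title BubR1+/+ and 1 with the title CDC20+/+. The unstable lines comprised 2 BubR1H/H lines, with a hypomorphic allele of the mitotic checkpoint kinase BubR1, and 1 CDC20AAA/AAA line, whose allele of the mitotic activator CDC20 the labels also list as hypomorphic. Each title starts with a number shared by 1 stable and 1 unstable line, which makes pairs 9515 and 9938 BubR1 pairs and 10074 the CDC20 pair. The CDC20 comparison thus has 1 line on each side. All lines were grown for 2 passages under the same treatment, and the labels name no added interferon. Strain and embryo age are not given in the sources used here.

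Interferon-inducible GTPases are large enzymes of cell-autonomous immunity that bind and hydrolyse GTP. Guanylate-binding proteins (the Gbp genes) and immunity-related GTPases (Irgm1, Irgm2, Igtp and Iigp1) act against intracellular bacteria and parasites. Guanylate-binding proteins and effectors such as Iigp1 assemble on the vacuoles that enclose these, while the regulatory Irgm1 acts on host membranes. The Mx proteins, relatives of dynamin, block the replication of several RNA viruses. Type I interferon induces genes through the interferon-stimulated response element, a DNA motif bound with the help of IRF9, and interferon gamma through a motif called the gamma-activated site. In fibroblasts interferon is known to raise these genes. Their levels without added interferon need not be low, since Irgm1 was at 8.32 or above in every stable line here.

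The promoters are shown first because these 2 elements are the textbook route by which the genes are induced. In RefSeq (GRCm38.p6), 7 windows of 6 of the members were searched, from 250 bases before to 50 bases after an annotated transcript start. Iigp1, Mx1 and Mx2 were not searched. The response element was searched as GAAA, any 2 bases and GAAA, and the gamma-activated site as TTC, any 3 bases and GAA, each on both strands. A response element was present in all 6 members searched, against 3.99% of 27025 genes with such windows (3.44% of 32851 windows). A gamma-activated site was present in 3 of the 6, against 9.55% of genes. The second window of Gbp3 held neither. The stretches that hold the motifs, with 15 further bases on each side, read 5′ to 3′ along the gene as follows, with every motif in capitals.

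Gbp7 (chr3:142530215-142530307, plus strand): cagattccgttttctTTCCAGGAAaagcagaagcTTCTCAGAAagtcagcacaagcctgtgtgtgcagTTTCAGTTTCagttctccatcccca
Gbp3 (chr3:142559984-142560029, plus strand): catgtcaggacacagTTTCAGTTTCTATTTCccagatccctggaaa
Gbp2 (chr3:142620589-142620628, plus strand): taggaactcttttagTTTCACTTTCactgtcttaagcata
Irgm1 (chr11:48871420-48871465, minus strand): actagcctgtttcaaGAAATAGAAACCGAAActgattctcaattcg
Igtp (chr11:58199496-58199546, plus strand): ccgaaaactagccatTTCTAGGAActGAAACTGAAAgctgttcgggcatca
Irgm2 (chr11:58214887-58214937, plus strand): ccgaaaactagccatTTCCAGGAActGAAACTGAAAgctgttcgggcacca

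The Igtp and Irgm2 stretches matched at 49 of 51 bases, and in both a gamma-activated site lay just upstream of the response element. In Gbp7 the response element followed 2 gamma-activated sites. Gbp3 and Irgm1 each held 2 overlapping response elements, and Gbp2 held 1. A match describes the letters of a window and does not show that a factor bound there.

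Values were log2 expression levels after GCRMA, which corrects background and brings the arrays to a common distribution. Array medians lay between 6.16 and 6.20. Levels under log2 4 were taken as too low for a reliable size and differences that rest on them are approximate. With 6 arrays, 1 per line, the number of lines limits the precision, and since the labels do not say whether lines came from separate embryos, p-values reflect only how much these particular lines vary. The BubR1 gene, Bub1b, differed by -1.66, -2.08 and -0.62 on the log2 scale in pairs 9515, 9938 and 10074. Xist, the RNA of the inactive X chromosome, was at 11.16 and 10.70 in pair 9938 and between 2.24 and 2.94 in the other lines, a pattern shared within pairs that sets pair 9938 apart, and its part in differences between pairs was not tested.

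Among the guanylate-binding proteins, Gbp7 was measured well above the floor in every line. Stable lines of pairs 9515, 9938 and 10074 stood at 6.38, 6.47 and 7.03, and their unstable partners at 7.09, 7.50 and 9.00. The groups did not overlap, although the stable CDC20 line and the unstable line of pair 9515 lay only slightly apart. Group means were 6.62 ± 0.35 and 7.86 ± 1.01 (SD, n = 3 each), and unstable lines were thus 2.36-fold higher. Within pairs the unstable line was 1.64-fold higher in pair 9515, 2.04-fold in pair 9938 and 3.93-fold in pair 10074. A dimmer Gbp7 probe set, with 1 value under the floor, gave smaller differences of 0.61, 0.41 and 1.28.

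Gbp2, which is prenylated and recruited to pathogen vacuoles, measured 6.83, 5.99 and 6.67 in stable lines (pairs 9515, 9938 and 10074), with 7.40, 6.78 and 7.85 in their unstable partners. The groups overlapped here, since the stable line of pair 9515 lay above the unstable line of pair 9938. The group means were 6.50 ± 0.45 and 7.34 ± 0.54 (SD, n = 3 each), and the pair differences were 0.57, 0.78 and 1.18 on the log2 scale. That probe set belongs to a class in which some probes also match other sequences, so other Gbp transcripts could contribute. A second Gbp2 probe set, outside that class, gave 0.31, 0.41 and 1.11.

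Gbp3 had the largest within-pair differences of the 3 guanylate-binding proteins. It was under the floor in all stable lines, at 2.99, 3.19 and 3.82, and reached 4.02, 4.38 and 6.82 in their unstable partners. Only the unstable CDC20 line was clearly above the floor. Its differences of 1.04, 1.18 and 3.00 are thus approximate sizes. With every value under 4 set to 4, the group difference of Gbp3 was 1.07 in place of 1.74. Its unstable line of pair 9515, at 4.022, was the member value nearest above the floor, and its stable CDC20 line, at 3.818, the nearest below it.

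Irgm1, a regulatory immunity-related GTPase that acts on host membranes and in autophagy, was at 9.30, 8.32 and 9.09 in stable lines, with 9.72, 9.61 and 10.80 in their partners. All unstable lines lay above all stable lines, with means of 10.04 ± 0.66 and 8.90 ± 0.52 (SD, n = 3 each). The margin was small, the stable line of pair 9515 lying not far below the unstable line of pair 9938. Pair differences were 0.41, 1.29 and 1.72, so the BubR1 pairs differed more from each other here than for any other member.

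Irgm2, another of the regulatory group, was at 5.36, 5.75 and 6.55 in stable and at 6.82, 6.58 and 8.74 in unstable lines. The unstable line of pair 9938 and the stable CDC20 line were almost level, and the groups did not overlap. The means were 5.89 ± 0.61 in stable and 7.38 ± 1.18 in unstable lines (SD, n = 3 each), a 2.81-fold difference. In this gene pair 9515, at 1.45, had a larger difference than pair 9938, at 0.83, and pair 10074 had 2.19.

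Igtp, the third regulatory member (also named Irgm3), was at 4.68, 5.30 and 6.22 in stable and at 5.40, 5.86 and 8.07 in unstable lines. Here the groups overlapped, since the stable CDC20 line lay above both unstable BubR1 lines. Group means were 5.40 ± 0.77 and 6.44 ± 1.42 (SD, n = 3 each), and pair differences were 0.72, 0.56 and 1.85. Igtp and Irgm2 are direct neighbours on chromosome 11 in RefSeq and share the promoter stretch shown above. In both, pair 9515 had the larger BubR1 difference, but so it had in Mx2 on chromosome 16, at levels under the floor. A link of that order to the stretch was not tested.

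Iigp1 encodes an effector of the same family that coats and disrupts parasite vacuoles. It reached the floor in 1 line only, the unstable CDC20 line at 5.74, with the stable CDC20 line at 3.55. The BubR1 lines were at 2.85 and 2.60 when stable and 3.58 and 3.54 when unstable. Its dimmer probe set showed the same order within each pair, with differences of 0.55, 0.56 and 1.58 against 0.73, 0.95 and 2.18. Its group difference was 1.29, and 0.58 with every value under 4 set to 4, so the size is approximate.

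The Mx genes were near the bottom of the scale. Mx1 was at 2.98, 2.82 and 3.04 in stable and at 3.50, 3.51 and 4.34 in unstable lines, above the floor in the unstable CDC20 line alone. Mx2 stayed under the floor in all 6 lines, at 1.94 to 2.26 in stable and at 2.39, 2.40 and 3.19 in unstable lines. RefSeq annotates both as transcribed pseudogenes in the C57BL/6J assembly, and many laboratory strains carry defective Mx alleles. With values under 4 set to 4, the group difference was 0.11 for Mx1 and 0 for Mx2, so the separation of the groups in these genes rests on values too low to size.

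**Figure D1:**
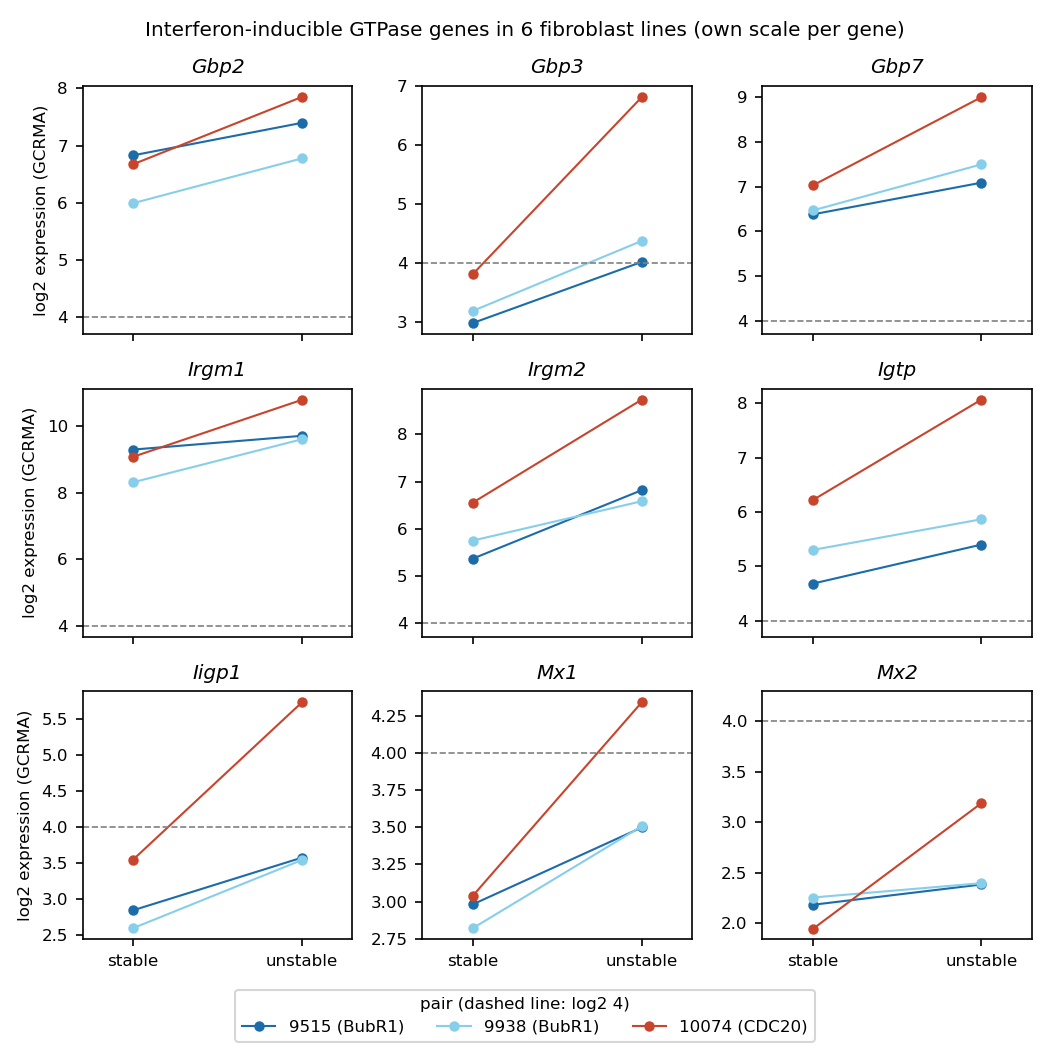
Log2 expression of the 9 GTPase genes, 1 panel a gene with its own vertical scale. Points are single lines, a line joins the stable and the unstable line of a pair, and the dashed line marks log2 4. Every joining line runs upward and the CDC20 unstable line is the highest point in all 9 panels, while Mx2 stays under 4 throughout and Gbp3, Iigp1 and Mx1 start under it.

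Over the 9 genes the unstable line was higher than its stable partner in all 3 pairs for 9 of 9, a pattern found in 15.7% of all 12393 genes. The groups did not overlap for 6 of 9 (Gbp3, Gbp7, Irgm1, Irgm2, Mx1 and Mx2), against 3.67% of all genes. Since the genes were chosen on this contrast, those counts are not support for it. Of the 5 members that stayed above the floor in every line, Gbp7, Irgm1 and Irgm2 did not overlap and Gbp2 and Igtp did.

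The median difference over the 9 genes was 1.14 on the log2 scale, beside -0.007 over all genes. The pair medians were 0.71 in pair 9515, 0.83 in pair 9938 and 1.85 in pair 10074, beside 0.004, -0.009 and -0.017 over all genes. Without the unstable CDC20 line the median shrank to 0.59, and single members then differed by 0.23 (Igtp) to 0.87 (Gbp3). Without the whole CDC20 pair it was 0.84, with a range from 0.17 (Mx2) to 1.14 (Irgm2).

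The CDC20 pair had the largest difference in 9 of 9 genes and in 12 of 12 probe sets. Such an order was seen in 30.8% of all genes. The unstable CDC20 line was the highest of the 6 lines in 9 of 9, against 15.8% of all genes. Its pair differed by at least 1 on the log2 scale in 9 of 9, against 0.839%. The genes were chosen on a contrast that includes this pair, so these counts are not support for a larger CDC20 effect. In the BubR1 pairs, that size was reached by 2 members in pair 9515 (Gbp3 and Irgm2) and by 3 in pair 9938 (Gbp3, Gbp7 and Irgm1). The excess of the CDC20 pair over the mean of the BubR1 pairs ran from 0.50 for Gbp2 to 1.89 for Gbp3. It was 0.86 for Irgm1, 1.04 for Irgm2, 1.10 for Gbp7 and 1.21 for Igtp, which like Gbp2 had all values above the floor. The CDC20 effect comes from 1 line of each genotype, so its own spread is unknown.

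**Figure D2:**
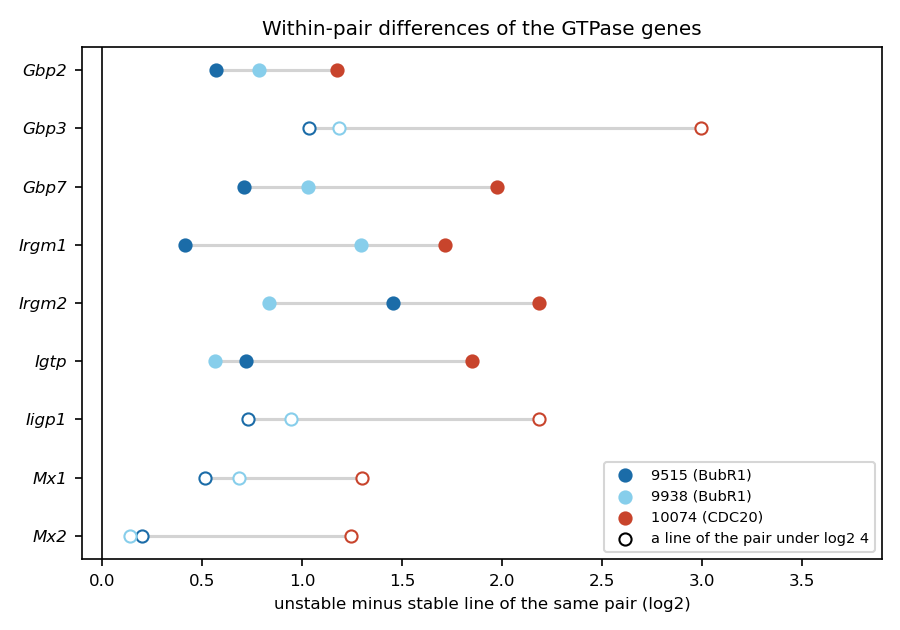
Unstable minus stable difference on the log2 scale for each GTPase gene, 1 point a pair; open points have at least 1 line under log2 4. The BubR1 pairs lie between 0.14 and 1.45, and the CDC20 pair lies between 1.18 and 3.00 and to the right of both in every row.

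In limma's moderated test over 8382 genes with a level of at least 4 on at least 3 arrays, 0 genes passed an adjusted p under 0.05 for unstable against stable (0%), none of them a member. Only 6 members entered that test, since Iigp1, Mx1 and Mx2 fell short of the filter, and Gbp3 entered through its unstable lines alone. Without adjustment 359 genes had a p under 0.05, 3 of the 6 members included. With the pair number as a replicate block 0 genes passed again (0%), and 1019 had an unadjusted p under 0.05, with all 6 tested members among them. For the difference between the CDC20 and BubR1 effects 0 of 8382 genes passed (0%), with 133 at an unadjusted p under 0.05, of which 3 were members. With the block for that contrast the counts were 0 and 476, of which 4 were members. Nothing is read from the members' counts, because the contrast was used to choose them.

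The stable lines also differed among themselves. The stable CDC20 line was the highest of the 3 stable lines in 6 of 9 genes, and its Igtp level was 1.54 above that of the stable line of pair 9515. It lay above at least 1 unstable BubR1 line for 2 members, Igtp and Iigp1. Averaged over the members after centring each on its own mean, the lines ordered from 1.64 in unstable 10074, through 0.04 in unstable 9938 and 0.01 in unstable 9515, to -0.21 in stable 10074, -0.69 in stable 9515 and -0.79 in stable 9938. Both unstable BubR1 lines were level on this average, and the gap between stable and unstable was of like size in both BubR1 pairs.

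The members varied alike over the 6 lines. Pearson's r between pairs of members had a median of 0.91 over 36 pairs, with 0.63 for Gbp2 with Igtp as the lowest and 0.997 as the highest. These correlations share the same 6 arrays, 3 of them unstable, and describe the set. Gbp2 followed the mean of the other members least closely (r = 0.82), and Iigp1 most closely (r = 0.99). Iigp1 had 5 of 6 values under the floor, so its r rests mostly on low levels. On the mean of all members the unstable CDC20 line stood far above the rest, which weighs on every r.

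Most other measured interferon-inducible GTPases were too low to compare with the members. Of 20 listed genes 5 had a probe set of their own, and Ifi47, an immunity-related GTPase, was the single one to pass the filter. Ifi47 was at 4.77, 5.09 and 5.59 in stable and at 5.28, 5.76 and 6.22 in unstable lines. Its pair differences of 0.51, 0.66 and 0.63 were of similar size in all pairs, with the CDC20 pair not the largest. Gbp6 differed by 0.63, 0.39 and 0.96, with 1 line above the floor. Gbp2b, which RefSeq places between Gbp3 and Gbp2 on chromosome 3, was under the floor at 1.94 to 2.08 in all 6 lines, as was Gm12185 at 2.56 to 2.74. Gbp8 differed by -0.16, 0.81 and -0.87, with only the unstable line of pair 9938 above the floor, at 4.34.

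Among the ligands, 7 of 8 measured interferon genes lay under the floor in every line, from 1.40 for Ifna11 to 2.61 for Ifna1. Ifnb1 was at 2.18 to 2.30 and Ifng at 1.83 to 2.17. Ifnz was the exception at 5.46 to 6.12, with pair differences of 0.16, -0.20 and 0.14. Of 8 measured receptor and Janus kinase genes, 0 passed the limma test and 0 were higher in all 3 pairs (15.7% of all genes were), with a median of 0.004. Their pair medians were 0.065, 0.284 and -0.14, so single pairs differed more than the group means show. The largest difference between group means among them was that of Ifngr2, a chain of the gamma receptor, at -0.20. Its pair differences were 0.03, -0.56 and -0.08.

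Among 9 measured STAT and IRF factors, 3 were higher in all 3 pairs (15.7% of all genes were): Irf9, Irf7 and Irf1. Irf9, a DNA-binding factor of the type I response, differed by 0.23, 1.16 and 1.48, and Irf7, an amplifier of type I interferon, by 0.49, 0.75 and 1.95 with 4 lines under the floor. Stat2 differed by -0.08, 0.21 and 1.62, that is, mostly in the CDC20 pair. Irf1, a main target of the gamma response, differed by 0.05, 0.02 and 0.04. Of 7 tested factors 0 passed the limma test.

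Of the negative regulators, Usp18, a brake on the type I receptor, was at 3.94, 3.94 and 4.85 in stable and at 4.82, 5.18 and 9.49 in unstable lines, with the first 2 stable values under the floor. Its difference of 4.65 in pair 10074 exceeded that of every member. Socs3 differed by 0.02, -0.05 and -0.71. Of 10 measured nucleic acid sensing genes, 2 were higher in all 3 pairs, against 15.7% of all genes. Ifih1, the double-stranded RNA sensor MDA5, was higher by 0.38, 0.68 and 1.45. Dhx58 was higher by 0.49, 0.32 and 1.11 with 3 lines under the floor, both of pair 9515 among them. Ifi204, a DNA sensor of the p200 family, differed by -0.02, 0.25 and 1.74. None of 6 tested negative regulators and 9 tested sensors passed the limma test.

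Among 18 other interferon-stimulated genes, the unstable mean was above the stable one for 18, against 5924 of all 12393 genes. Of the 18 genes, 14 were higher in all 3 pairs at once, against 15.7% of all genes. This list was also chosen with earlier results of these data known, so its counts are not support. The median of the 18 genes was 0.51, and the pair medians were 0.27, 0.35 and 1.11. Ifit1, which binds viral RNA, differed by 1.60, 2.16 and 4.42, Oasl2 by 0.73, 1.17 and 3.70 with 3 BubR1 lines under the floor, and the chemokine gene Cxcl10 by 0.73, 1.74 and 2.35. The CDC20 pair had the largest difference in 18 of 18, against 30.8% of all genes. Of the 14 tested, 0 passed the limma test, and 2 had an unadjusted p under 0.05, or 9 with the replicate block, beside 359 and 1019 of all 8382 genes.

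Antigen processing genes, many of them gamma-inducible, showed smaller differences, with pair medians of 0.16, 0.17 and 0.17 over 15 measured genes. Cd274, the checkpoint ligand PD-L1, differed by 0.26, 0.27 and 0.94, Tapbp by 0.28, 0.46 and 0.29, and the immunoproteasome subunit gene Psmb8 by 0.19, 0.33 and 0.44. None of the 10 tested passed the limma test. Dynamin and atlastin relatives of the Mx and Gbp families had a median of -0.01 over 8 genes, with Dnm1 at 0.37, Dnm3 at 0.37 and Opa1 at -0.22. A list of autophagy genes held conjugation genes, whose products help load immunity-related GTPases onto vacuoles, and also Ulk1, Becn1 and Sqstm1. It had a median of 0.12 over 14 genes, with Atg10 at 0.29, Gabarapl1 at 0.22 and Atg12 at 0.20. Again 0 of 8 and 0 of 14 passed the test.

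**Figure D3:**
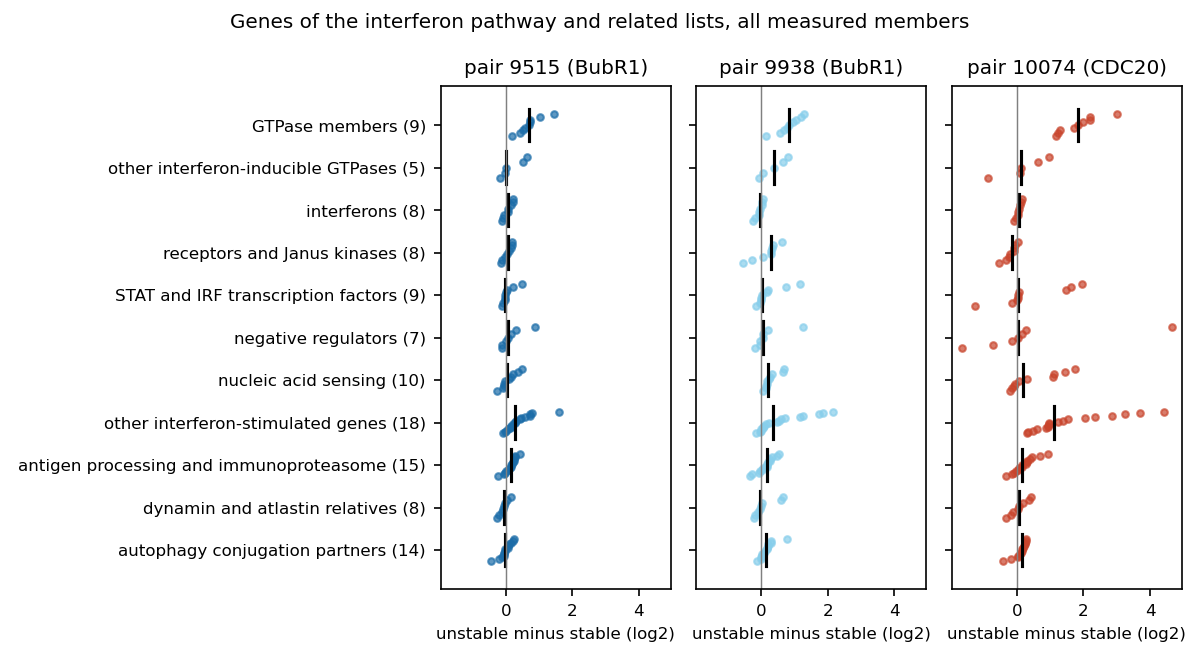
Unstable minus stable difference on the log2 scale of every measured gene of 11 lists, 1 panel a pair, with black bars at the list medians and gene numbers in brackets. The GTPase genes and the other interferon-stimulated genes lie to the right of 0 in pair 10074, with medians of 1.85 and 1.11, while interferons and dynamin relatives centre near 0 in all panels.

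The 10 tested genes outside the members whose levels followed the mean member profile most closely over the 6 lines were Ifit1 (r = 0.994), Zfp709 (0.993), Krt20 (0.992), Ifi35 (0.985), Usp18 (0.984), Ifit3 (0.983), Hoxb6 (0.982), Trim21 (0.980), Pde1b (0.978) and Pip4k2c (0.975). Ifit1, Ifi35, Usp18, Ifit3 and Trim21 belong to the interferon lists. The keratin gene Krt20 differed by 0.54, 0.85 and 1.49 with 2 lines under the floor. The other 4 had smaller differences, from 0.07 to 0.62 in single pairs. The points of each correlation are the same 6 arrays.

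Macrophages in fibroblast cultures also express these GTPases, and in bulk RNA fewer cells of a type and less RNA per cell cannot be told apart. The fibroblast markers were high in all lines, with mean levels from 11.50 to 11.97. Macrophage and leukocyte markers were present too. Their mean level over 21 genes was 7.16 and 6.96 in the stable and unstable lines of pair 9515, 9.60 and 9.77 in pair 9938 and 9.56 and 8.47 in pair 10074. Their summed linear level ranged from 9194 to 36383 in stable and from 7048 to 39087 in unstable lines. Over the group means 0 of 21 were higher in unstable lines, against 5924 of all 12393 genes, and the pair medians were -0.22, 0.18 and -1.19. In pair 10074, where the GTPase genes were highest in the unstable line, these markers were thus lower in that line, with Cx3cr1 at -2.02, Cd52 at -1.50 and Laptm5 at -1.40. The part of these cells in the GTPase values was not tested. The 5 T, B and NK cell markers lay under the floor in all lines, as did 3 or 4 of 4 endothelial and 2 or 3 of 4 epithelial markers. The endothelial Kdr was near the floor at 3.95 to 4.31 and the epithelial Krt18 at 5.93 to 7.02.

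**Figure D4:**
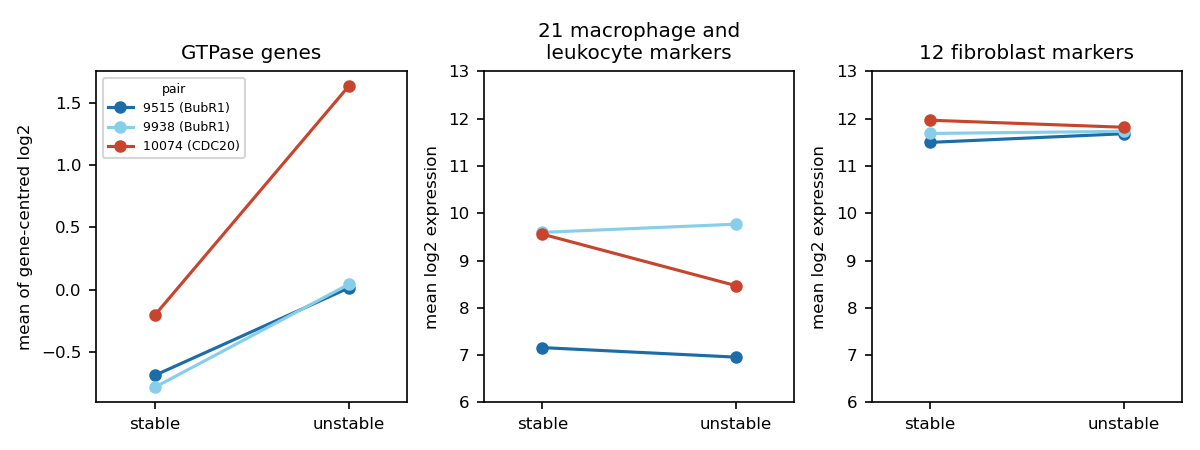
Levels by line, with the stable and the unstable line of each pair joined: left, the mean of the 9 GTPase genes, each centred on its own mean over the 6 lines; middle and right, mean log2 level of macrophage and leukocyte markers and of fibroblast markers. The GTPase mean is highest in the unstable CDC20 line at 1.64, where the macrophage mean of 8.47 is below the 9.56 of its stable partner, and fibroblast means stay between 11.50 and 11.97.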

How the data were processed

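R 2.15.3 and GCRMA 2.28.0 are named for the authors' processing, per the submitters' processing notes. The deposited log2 values (0.922 to 14.393, 22626 probe sets on each of 6 arrays) were used as they are, and 0 value columns lacked a sample. Only these processed values were used. Probe sets with 1 gene symbol in the platform annotation (20380; 691 had several and 1555 were not listed) gave 12393 genes, each represented by its probe set with the highest mean; 20351 matched RefSeq (GRCm38.p6) by Entrez identifier, and 0 symbols changed. The 8382 genes that reached log2 4 on 3 or more arrays were tested with limma 3.58.1 in R 4.3.3 (lmFit, eBayes, two-sided, Benjamini-Hochberg adjusted over all genes). The fit was tried on simulated data with known shifts. Those data had no pairing and the spread of the stable lines only, so they do not show how it performs here. The contrast of CDC20 and BubR1 effects used 4 groups.

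Deviations from group means correlated at 0.812, 0.681 and 0.602 for same-numbered lines and at -0.673 to 0.153 for others, so the title numbers were taken as pairs. The members and lists were chosen with earlier results of these data known. Named were all members, up to 3 tested genes of each list by size of difference, and the 10 genes most correlated with the mean member profile. Exceptions chosen after their values were seen are Irf1, Irf7, the interferon genes, Gbp2b, Gbp6, Gbp8, Gm12185, Bub1b and Xist. Alternatives were the replicate block, other filters, other probe set rules, centring or renormalization, a trend and robust prior, array weights and leaving out lines or pairs. Python 3.11.15 was used for the rest.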

Additional observations from a re-analysis of the deposited data

Results flagged for a closer look

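In 6 named genes that passed the filter on low levels, none of them a GTPase member, both BubR1 pairs differed one way and the CDC20 pair the other. The share of all genes with this order was not counted, so nothing is read from the number. Other listed genes showed it too, such as Tyk2 and Jak2. Some of the values were near 0, such as -0.05 for Ifngr1 in the CDC20 pair and 0.02 for Irf8 in pair 9515. In limma's test of the difference between the CDC20 and BubR1 effects 0 of 8382 genes passed, so none of the 6 did, and the CDC20 effect rests on 2 lines. The excess of the CDC20 pair over the mean of the BubR1 pairs, on the log2 scale, was -0.33 for Ifngr1, -1.36 for Irf8, -1.90 for Ptpn6, -1.16 for the fibroblast gene Dcn, -0.79 for Krt18 and -0.85 for Krt8. Irf8 had 3 lines, Krt8 3 lines and Ptpn6 1 line under log2 4. The leukocyte genes Irf8 and Ptpn6 were lower in the unstable CDC20 line (-1.27 and -1.64), as were the macrophage markers (median -1.19). The part of these markers in the values was not tested. With 3 lines a group, single outlying lines were not searched for.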

How the results depend on the processing

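The counts of genes past the adjusted threshold were 0 for unstable against stable and 0 for the difference between the CDC20 and BubR1 effects under every alternative run, the replicate block included. At an unadjusted p under 0.05 the first contrast gave 144 to 1019 genes over the alternatives, the lowest without pair 9938 and the highest with the replicate block. The second gave 68 to 476 genes; it could not be fitted without either CDC20 line. The median difference of the 9 members was 1.14. The replicate block cannot change it, since every pair has 1 line in each group. This median lay between 0.59 (without the unstable CDC20 line) and 1.57 (without the unstable line of pair 9515) when single lines were left out. It was 0.97 over all 12 member probe sets and 1.04 with values under 4 set to 4. Of 132 recomputed differences of single members none was below 0, and 129 stayed within the spread (SD) of that gene's pair differences. The exceptions were Mx1 at 0.11 with values under 4 set to 4, and Irgm2 at 0.81 and Igtp at 0.23 without the unstable CDC20 line. That spread is wide because it includes the CDC20 pair, so the count says little about stability. Mx2 at 0 with values under 4 set to 4, and Gbp3 at 0.87 without the unstable CDC20 line, still counted as within it. Probe levels under log2 4 limit what can be said of Gbp3, Iigp1, Mx1 and Mx2: 19 of 54 member values were under it.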
